A study of Homo sapiens with 27 samples.

Results

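The genes described here are 50 genes of the cell cycle and of proliferation, followed by name through 22Rv1, DU145 and PC3, established cell lines of human prostate cancer. RIPK2, a kinase that relays NOD1 and NOD2 signals, had been targeted in each line with CRISPR guide RNAs. The members were chosen by symbol, and all 50 were listed in each of the 3 count tables, which held 24379 symbols for 22Rv1, 23532 for DU145 and 23462 for PC3. They were sorted by textbook function into 11 roles. Bulk messenger RNA was sequenced from 27 libraries, 9 for each line. In 22Rv1, 3 libraries came from wild-type cells carrying control gRNA 1, 3 from cells labelled as knockout with RIPK2 gRNA 1 and 3 from those with RIPK2 gRNA 10. In DU145 and in PC3, the groups of 3 were control gRNA 1, RIPK2 gRNA 2 and RIPK2 gRNA 10. The labels name no drug or time point. They leave unsaid whether the cells of a guide grew from 1 clone or many, and whether replicates are separate cultures, so p-values measure only the spread between these libraries, which may be technical. With 1 population for each guide, loss of RIPK2 and any other difference between populations cannot be told apart.

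Cells enter the cycle when D-type cyclins with CDK4 or CDK6, and then cyclin E with CDK2, phosphorylate the retinoblastoma protein RB1 and release E2F transcription factors. E2F targets supply the replication machinery of S phase, including the MCM helicase, the sliding clamp PCNA and the enzymes that make deoxynucleotides. Later genes, which drive mitosis, are switched on by MYBL2 and FOXM1 with the MuvB complex, often through a CHR element and CCAAT boxes in their promoters. DU145 is known to lack functional RB1 protein and PC3 to lack p53.

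Library totals ran from 17958558 to 20650819 counts. Levels are given as CPM, read counts scaled to library size with TMM factors within each line. Replicate 3 of 22Rv1 gRNA 1 stood apart, with 16.7% of its counts in mitochondrial genes, against at most 2.10% in the other 22Rv1 libraries. Replicate 3 of DU145 gRNA 2 also stood apart, with correlations of 0.978 and 0.975 to its replicates. RIPK2 itself went from a mean of 16.7 CPM in controls to 8.69 and 5.38 in 22Rv1, from 42.4 to 11.8 and 34.8 in DU145 and from 60.4 to 20.6 and 27.2 in PC3. The lower level in DU145 with gRNA 10 missed the threshold (edgeR adjusted p 0.0614), so libraries are named here by their guide. The epithelial keratin KRT8 was at a mean of 173 CPM in 22Rv1 controls, 425 in DU145 controls and 344 in PC3 controls. The leukocyte marker PTPRC had at most 2 counts in any control library.

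In the control libraries, set on 1 common scale, the cell cycle genes were highest in 22Rv1 and lowest in PC3. Their summed level was 12811 to 13285 CPM in the 22Rv1 controls, 8035 to 8218 in the DU145 controls and 4480 to 4562 in the PC3 controls. By gene, 34 members were highest in 22Rv1 and 16 in DU145, none was highest in PC3, and 45 were lowest in PC3. All 3 lines separated without overlap of libraries for 40 members. The same counts were not made over all genes, so they are not read as particular to the members. Much of the summed gap between 22Rv1 and DU145 lay in the cyclin genes CCND1 and CCND3. Cyclin D1 (CCND1) had another order: it was at 2515 CPM in 22Rv1 (SD 70.0, n = 3), 921 CPM in PC3 (SD 4.36, n = 3) and 168 CPM in DU145 (SD 5.71, n = 3). Cyclin D3 (CCND3) was at 959 CPM in 22Rv1 (SD 99.9, n = 3), 67.6 CPM in PC3 (SD 3.63, n = 3) and 52.1 CPM in DU145 (SD 2.41, n = 3). MKI67, which encodes the Ki-67 proliferation marker, was at 454 CPM in DU145 (SD 45.7, n = 3), 369 CPM in 22Rv1 (SD 35.2, n = 3) and 151 CPM in PC3 (SD 12.5, n = 3). MYBL2 overlapped between DU145 and 22Rv1, at 216 CPM in DU145 (SD 13.3, n = 3) and 209 CPM in 22Rv1 (SD 22.5, n = 3), and was lower in PC3, at 109.7 CPM in PC3 (SD 5.41, n = 3). The lines differ in many ways, and these levels are a description.

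The direction of change differed between the lines and between guides. A gene is called changed when its Benjamini-Hochberg adjusted p, from edgeR's quasi-likelihood test over all genes of that line, is under 0.05. In 22Rv1 with gRNA 1, 27 of the 49 tested members changed, against 48.5% of all genes tested. Of these, 2 rose (25.6% of all genes rose) and 25 fell (22.9% of all genes fell). With gRNA 10 in 22Rv1, 17 of 49 changed (40.6% of all genes), 9 higher (20.0%) and 8 lower (20.6%), shares near or under the background. In DU145 with gRNA 2, 16 of 50 changed (34.0%), 12 higher (17.1%) and 4 lower (17.0%). With gRNA 10 in DU145, 18 of 50 changed (40.0%), 11 higher (20.2%) and 7 lower (19.8%). In PC3 with gRNA 2, 35 of 49 changed (63.6%), of which 32 rose (32.1%) and 3 fell (31.5%). With gRNA 10 in PC3, 44 of 49 changed (73.5%), of which 37 rose (37.9%) and 7 fell (35.6%). The members' median log2 fold change was -0.30 and -0.04 in 22Rv1 (gRNA 1, then gRNA 10), 0.18 and 0.14 in DU145 and 0.34 and 0.25 in PC3. Over all genes tested this median was at most 0.02 from 0 in each comparison. Both guide comparisons of a line share its control libraries.

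**Figure D1:**
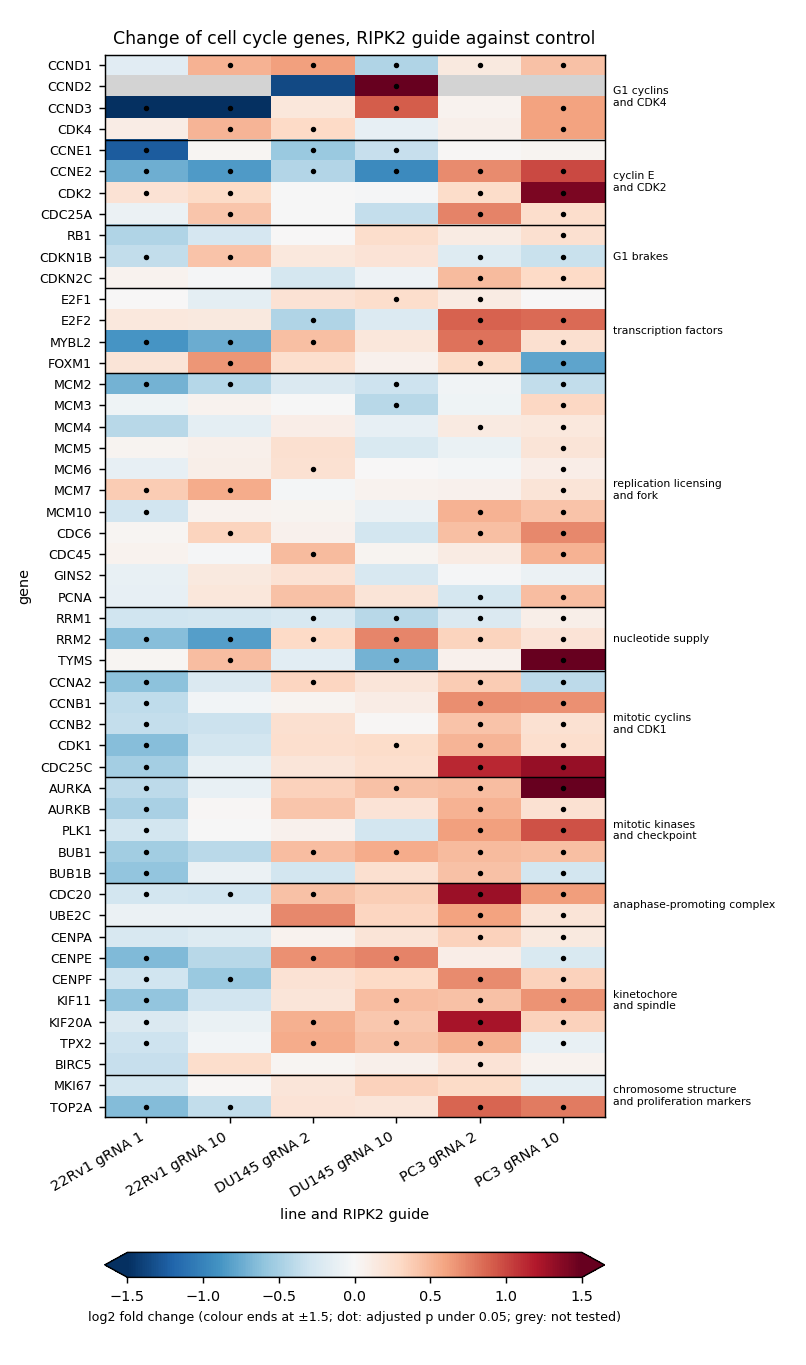
Log2 fold change of the 50 genes (rows, by role) in the 6 comparisons of a RIPK2 guide with the control guide (columns). Red is higher and blue lower with the RIPK2 guide, a dot marks an edgeR adjusted p under 0.05 and grey a gene that was not tested. The lower rows, with mitotic roles, are mostly blue in 22Rv1 gRNA 1, where 25 members fell, and mostly red in PC3, where 32 and 37 members rose.

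Among late genes, calls ran mostly in 1 direction within each comparison, though in 22Rv1 gRNA 10 they were rarer than among all genes. For description the roles were joined, after the data had been seen, into 21 late (mitotic) members, 22 G1/S members (cyclin E, CDK2, transcription factors, replication and nucleotide supply) and 7 G1 members (cyclins D, CDK4 and the brakes). In PC3 the G1/S calls also ran mostly in 1 direction, so the pattern was not particular to late members there. In 22Rv1 with gRNA 1, 17 of the 21 late members fell (22.9% of all genes) and none rose (25.6%). Their median log2 fold change was -0.39, while 2 G1/S members rose and 6 fell. Without replicate 3 of that group, 20 late members fell and the median was -0.33. Fitted on the compared libraries alone, 10 fell. With gRNA 10, 3 late members fell (20.6% of all genes) and none rose (20.0%), with a median of -0.11. On the compared libraries alone, 8 fell and 1 rose. Replicate 3 of 22Rv1 gRNA 1 bears on this comparison only through the estimated spread in the fit of the whole line. With it left out, 9 late members fell and 1 rose with gRNA 10.

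In DU145 the late members that were called rose. With gRNA 2, 6 rose (17.1% of all genes) and none fell (17.0%), with a median of 0.25. With gRNA 10, 7 rose (20.2%) and none fell (19.8%), with a median of 0.27. BUB1B with gRNA 2 (-0.28) and PLK1 with gRNA 10 (-0.28) were lower and not called, while 2 G1/S members rose and 6 fell with gRNA 10. These DU145 counts moved with 1 library: without replicate 3 of gRNA 2, the late counts were 8 higher and 2 lower (gRNA 2) and 16 higher and 1 lower (gRNA 10). Fitted on the compared libraries alone, they were 3 higher and none lower (gRNA 2) and 18 higher and 1 lower (gRNA 10). That library had a summed member level of 11148 CPM, against 8677 and 8796 in its replicates and 8266 to 8455 in the controls. Over all members, the counts without it were 26 with gRNA 2 (15 higher, 11 lower) and 37 with gRNA 10 (23 higher, 14 lower). The DU145 gRNA 2 count was 7 without replicate 1 or 2 of the control, 8 without replicate 3 of the control and 9 without replicate 2 or 3 of gRNA 10. In PC3, 19 late members rose (32.1% of all genes) and none fell (31.5%) with gRNA 2 (median 0.51). With gRNA 10, 15 rose (37.9%) and 4 fell (35.6%), with a median of 0.25. Of the 22 G1/S members in PC3, 11 rose and 2 fell with gRNA 2, and 17 rose and 2 fell with gRNA 10. In the comparisons not yet given, G1/S counts were 6 higher and 4 lower (22Rv1 gRNA 10) and 4 and 4 (DU145 gRNA 2). In bulk RNA, fewer cells in a phase and less RNA in each cell cannot be told apart.

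**Figure D2:**
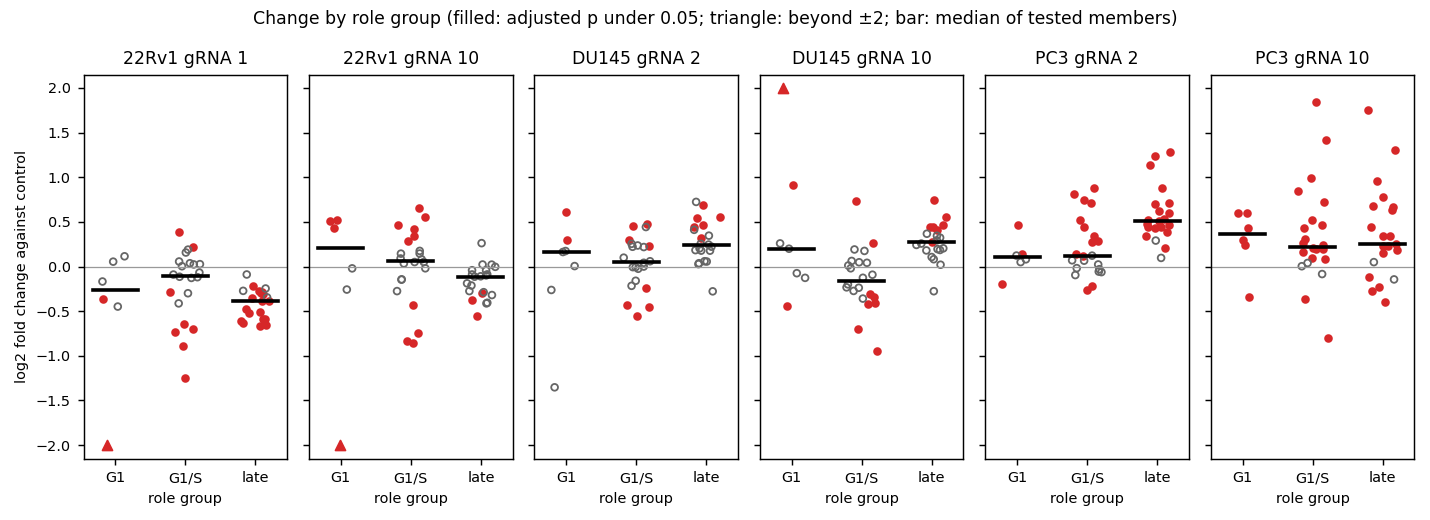
Log2 fold change against control (y axis) of the tested members by role group (x axis: G1, G1/S and late), 1 panel for each line and guide. Filled points have an edgeR adjusted p under 0.05, triangles lie beyond ±2 and bars are medians; the late medians run from -0.39 in 22Rv1 gRNA 1 to 0.51 in PC3 gRNA 2.

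The D-type cyclins, which start the cycle with CDK4 or CDK6, changed by gene and by line. CCND3 (chr6:41934933-42050357 in GRCh38, minus strand) fell by the largest amount of any member in 22Rv1. It was at 1046, 875 and 1046 CPM in the controls, 48.0, 52.4 and 53.8 with gRNA 1 and 50.6, 49.9 and 49.2 with gRNA 10. All 6 libraries of the RIPK2 guides lay far below the 3 controls, and the guides overlapped. Its log2 fold changes were -4.27 (edgeR adjusted p 1.53e-09, SE 0.11) and -4.31 (edgeR adjusted p 1.37e-09, SE 0.11). The 179 tested genes within 10 Mb of CCND3 had median log2 fold changes of 0.03 and 0.04. In DU145, CCND3 rose with gRNA 10, from 52.7, 51.6 and 56.4 CPM to 94.7, 106 and 102 (log2 fold change 0.91, SE 0.11, edgeR adjusted p 0.000127), while with gRNA 2, at 62.4, 50.6 and 68.4 CPM, it overlapped the controls. In PC3 it also rose with gRNA 10, from 64.8, 59.0 and 64.5 CPM to 98.1, 91.8 and 96.3 (log2 fold change 0.60, SE 0.05, edgeR adjusted p 3.43e-13).

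CCND2, which encodes cyclin D2, was near absent except in 1 population. In DU145 it had 2, 1 and 3 counts in the controls, 2, 0 and 0 with gRNA 2 and 161, 147 and 156 with gRNA 10. Pooled, 464 counts with gRNA 10 stood against 6 in the controls, a ratio of 80.3 after scaling (exact 95% interval 36.6 to 219.9, counting error only). This difference passed edgeR's test (adjusted p 1.36e-06). In 22Rv1 and PC3 no library held more than 3 counts of CCND2, and the gene was not tested there.

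CCND1 moved in opposite directions with the guides of DU145. Its libraries were at 167, 178 and 175 CPM in the controls, 254, 264 and 278 with gRNA 2 and 123, 127 and 131 with gRNA 10. The 3 groups did not overlap, with log2 fold changes of 0.62 (edgeR adjusted p 0.000192, SE 0.07) and -0.45 (edgeR adjusted p 0.000813, SE 0.07). In 22Rv1, CCND1 rose with gRNA 10, from 2575, 2678 and 2531 CPM to 3661, 3673 and 3823 (log2 fold change 0.52, SE 0.10, edgeR adjusted p 0.00233). With gRNA 1, at 2498, 2496 and 1936 CPM, it was not called (edgeR adjusted p 0.201), although its 3 libraries lay below the controls. In PC3 it rose with both guides, from 849, 857 and 859 CPM to 993, 945 and 896 with gRNA 2 and 1142, 1167 and 1161 with gRNA 10. CDK4, the kinase partner of these cyclins, rose in 3 of the 6 comparisons, by 0.51 on the log2 scale in 22Rv1 gRNA 10, 0.30 in DU145 gRNA 2 and 0.60 in PC3 gRNA 10. Genes within 10 Mb of CDK4 had medians of 0.52, 0.06 and 0.37 in these comparisons.

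**Figure D3:**
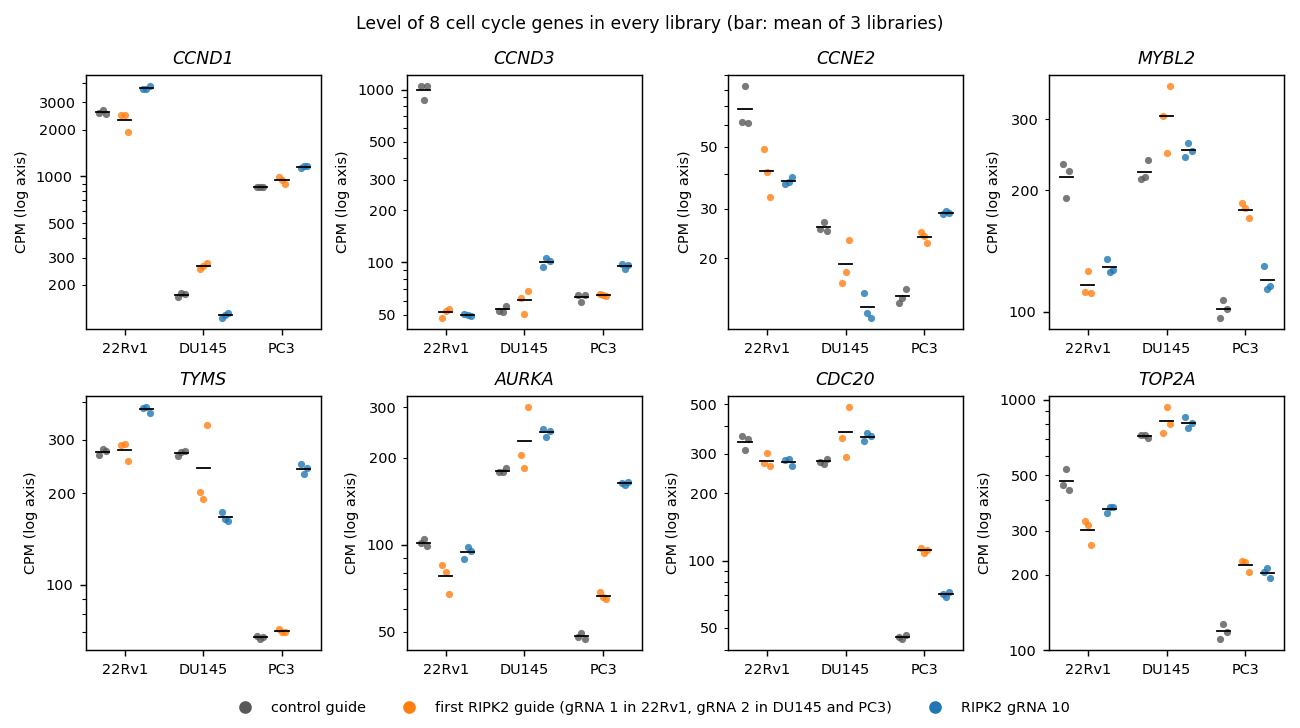
CPM (log axis) of 8 cell cycle genes in all 27 libraries, grouped by line on the x axis. Grey is the control guide, orange the first RIPK2 guide and blue RIPK2 gRNA 10, and bars are means of 3 libraries. CCND3 drops from 875 CPM or more to 53.8 or less in 22Rv1, and within PC3 the levels of TYMS and of AURKA are highest with gRNA 10.

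Of the E-type cyclins, which with CDK2 start DNA replication, CCNE2 fell with both guides in 22Rv1 and in DU145 and rose with both in PC3. In 22Rv1 CCNE2 was at 61.2, 82.4 and 60.9 CPM in the controls, 49.3, 40.6 and 33.0 with gRNA 1 and 36.8, 37.3 and 39.1 with gRNA 10. In DU145 it was at 25.5, 26.9 and 25.04 CPM in the controls, 16.3, 17.8 and 23.3 with gRNA 2 and 15.01, 12.8 and 12.3 with gRNA 10. In PC3 it went from 13.8, 14.5 and 15.5 CPM to 24.9, 24.1 and 22.7 with gRNA 2 and 28.8, 29.5 and 28.98 with gRNA 10. For CCNE2, libraries of the RIPK2 guides and of the control overlapped in none of the 6 comparisons. Its log2 fold changes were -0.73 (edgeR adjusted p 0.00326, SE 0.16) and -0.85 (edgeR adjusted p 0.0015, SE 0.16) in 22Rv1, -0.43 (edgeR adjusted p 0.0337, SE 0.14) and -0.95 (edgeR adjusted p 0.000467, SE 0.14) in DU145 and 0.71 (edgeR adjusted p 1.29e-10, SE 0.07) and 0.99 (edgeR adjusted p 1.47e-14, SE 0.07) in PC3. The call in DU145 gRNA 2 was lost under 10 of 16 alternatives, with an edgeR adjusted p of up to 0.113.

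CCNE1 separated the guides of 22Rv1. It was at 17.7, 18.5 and 21.1 CPM in the controls, 7.72, 7.08 and 9.34 with gRNA 1 and 20.3, 18.2 and 20.1 with gRNA 10. With gRNA 1 it fell clear of the controls (log2 fold change -1.25, SE 0.13, edgeR adjusted p 3.06e-05), and with gRNA 10 it overlapped them. In DU145, CCNE1 fell with both guides, from 32.6, 36.5 and 36.6 CPM to 26.3, 22.9 and 22.6 (gRNA 2) and 26.9, 28.8 and 27.6 (gRNA 10), and in PC3 it was not called with either. CDK2 (chr12:55966769-55972784 in GRCh38, plus strand) was at 48.6, 50.8 and 47.9 CPM in the PC3 controls, 59.9, 60.5 and 58.0 with gRNA 2 and 133, 131 and 129 with gRNA 10. It rose with both guides, most with gRNA 10 (log2 fold change 1.42, SE 0.04, edgeR adjusted p 4.38e-23). The 223 tested genes within 10 Mb of CDK2 had a median log2 fold change of 0.39 there. In 22Rv1, CDK2 went from 235, 239 and 235 CPM to 274, 269 and 280.1 with gRNA 1 and 289, 281 and 293 with gRNA 10, log2 fold changes of 0.22 and 0.28, beside medians of 0.44 and 0.53 for its neighbours. The gRNA 1 call was lost under 10 of 16 alternatives (edgeR adjusted p up to 0.272). CDC25A, the phosphatase that activates CDK2, rose with gRNA 10 in 22Rv1 (0.42 on the log2 scale) and with both guides in PC3 (0.74 and 0.26).

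The brakes of the cycle among the members are RB1, CDKN1B and CDKN2C. RB1 was called once, in PC3 gRNA 10, where it rose from 29.5, 29.8 and 33.8 CPM to 35.8, 36.9 and 37.6 (log2 fold change 0.24, SE 0.06, edgeR adjusted p 0.000368). In DU145, RB1 mRNA was at 59.9, 65.4 and 64.7 CPM in the controls, 52.8, 66.3 and 71.7 with gRNA 2, which overlapped them, and 81.3, 72.3 and 73.8 with gRNA 10. In 22Rv1 it was at 71.6, 98.9 and 69.6 CPM in the controls, 73.7, 64.6 and 37.6 with gRNA 1 and 60.4, 70.3 and 70.2 with gRNA 10. CDKN1B, which encodes the CDK inhibitor p27, took opposite directions in 22Rv1. From 199, 203 and 192 CPM in the controls it fell to 155, 148 and 158 with gRNA 1 (log2 fold change -0.37, SE 0.08, edgeR adjusted p 0.00297) and rose to 257, 274 and 269.9 with gRNA 10 (log2 fold change 0.43, SE 0.08, edgeR adjusted p 0.00132). The 143 tested genes within 10 Mb of CDKN1B had medians of 0.51 (gRNA 1) and 0.48 (gRNA 10) in 22Rv1. In PC3 CDKN1B was the only member lower with both guides, from 27.3, 26.4 and 28.6 CPM to 23.6, 24.1 and 24.3 with gRNA 2 and 21.7, 23.2 and 20.1 with gRNA 10. Without replicate 3 of the PC3 control its gRNA 2 call was lost (edgeR adjusted p 0.0513). In DU145, CDKN1B was at 55.2, 53.0 and 55.1 CPM in the controls, 59.2, 62.8 and 60.9 with gRNA 2 and 59.8, 62.5 and 65.4 with gRNA 10, with no call. CDKN2C, which encodes p18, rose with both guides in PC3 (0.47 and 0.30 on the log2 scale) and was not called elsewhere. The 146 tested genes within 10 Mb of CDKN2C had medians of 0.54 and 0.50 in PC3.

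Among the transcription factors, MYBL2 fell in 22Rv1 and rose in PC3. In 22Rv1 it was at 233, 191 and 224 CPM in the controls, 112, 126 and 111 with gRNA 1 and 135, 125 and 127 with gRNA 10, log2 fold changes of -0.89 (edgeR adjusted p 4.71e-05, SE 0.10) and -0.74 (edgeR adjusted p 0.000176, SE 0.10). In PC3 it went from 96.7, 107 and 102 CPM to 186, 181 and 171 with gRNA 2 and 129.9, 114 and 116 with gRNA 10, every library of these guides above every control. In DU145 it was at 214, 216 and 238 CPM in the controls, 305, 248 and 363 with gRNA 2, where it rose (log2 fold change 0.46, SE 0.12, edgeR adjusted p 0.0166), and 242, 261 and 251 with gRNA 10. Of 16 alternatives, 3 ended that DU145 call, with an edgeR adjusted p of up to 0.0718. FOXM1, which acts with MYBL2 on mitotic genes, rose in 22Rv1 gRNA 10, from 235, 216 and 231 CPM to 365, 362 and 348 (log2 fold change 0.66, SE 0.10, edgeR adjusted p 0.000366). Genes within 10 Mb of FOXM1 had a median of 0.53 there. In PC3, FOXM1 rose with gRNA 2, from 132, 135 and 129 CPM to 163, 166 and 153, and fell with gRNA 10 to 78.1, 74.3 and 75.6 (log2 fold change -0.80, SE 0.04, edgeR adjusted p 5.22e-17). The MYBL2 and FOXM1 directions were thus opposite in PC3 gRNA 10 and in 22Rv1 gRNA 10. E2F2, an activating E2F, fell in DU145 gRNA 2, from 39.0, 38.4 and 39.4 CPM to 29.8, 29.7 and 26.0 (log2 fold change -0.45), and rose with both guides in PC3 (0.88 and 0.85). E2F1, another activating E2F, rose in DU145 gRNA 10 (0.26) and PC3 gRNA 2 (0.12).

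Of the 11 members of replication licensing and the fork, 3 were called in 22Rv1 with each guide, where 48.5% (gRNA 1) and 40.6% (gRNA 10) of all genes were called. In DU145 it was 2 with each guide (34.0% and 40.0% of all genes), and in PC3 4 with gRNA 2 (63.6%) and 10 with gRNA 10 (73.5%). In 22Rv1, MCM7 rose from 654, 561 and 649.9 CPM to 804, 856 and 769.9 with gRNA 1 (log2 fold change 0.38, SE 0.09, edgeR adjusted p 0.00482) and to 935, 901 and 905 with gRNA 10 (log2 fold change 0.56, SE 0.09, edgeR adjusted p 0.000543). MCM2, another subunit of the same helicase, fell there from 494, 403 and 464 CPM to 309, 308 and 217 with gRNA 1 and 346, 335 and 331 with gRNA 10 (log2 fold changes -0.70 and -0.43). The other subunits, MCM3 to MCM6, were not called with either guide in 22Rv1. Genes within 10 Mb of MCM7 had medians of 0.59 and 0.47, and those near MCM2 -0.60 and -0.67. In DU145, CDC45, a helicase cofactor, rose with gRNA 2 (0.47), as did MCM6 (0.23), and MCM2 (-0.31) and MCM3 (-0.41) fell with gRNA 10. In PC3 with gRNA 10, 9 of the 11 rose, 1 fell and 1 was not called. The one that fell was MCM2, from 97.9, 102 and 96.1 CPM to 77.6, 71.6 and 80.3 (log2 fold change -0.37, SE 0.05, edgeR adjusted p 2.19e-08). PCNA, the sliding clamp, was at 79.8, 83.6 and 82.7 CPM in the PC3 controls, 69.6, 66.6 and 68.9 with gRNA 2 and 112, 109 and 117 with gRNA 10. It fell with gRNA 2 (log2 fold change -0.26, SE 0.04, edgeR adjusted p 4.08e-06) and rose with gRNA 10 (log2 fold change 0.46, SE 0.04, edgeR adjusted p 2.6e-11). The 79 tested genes within 10 Mb of PCNA had medians of -0.47 (gRNA 2) and -0.09 (gRNA 10) in PC3. In 22Rv1, PCNA was at 406, 424 and 388 CPM in the controls, 372, 377 and 372 with gRNA 1 and 462, 454 and 459 with gRNA 10, with no call. In DU145 it was at 139, 143 and 143 CPM in the controls, 161, 159.8 and 257 with gRNA 2, where replicate 3 was the highest, and 169, 158 and 158 with gRNA 10, again with no call. GINS2, part of the replicative helicase, was called in none of the 6 comparisons.

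Among the enzymes of nucleotide supply, thymidylate synthase (TYMS, chr18:657604-673578 in GRCh38, plus strand) had the largest rise of any tested member in PC3. It was at 67.6, 66.3 and 67.4 CPM in the PC3 controls, 71.7, 69.6 and 69.9 with gRNA 2 and 250.2, 230.5 and 242 with gRNA 10. Only gRNA 10 was called (log2 fold change 1.85, SE 0.04, edgeR adjusted p 1.37e-26). Its neighbours rose in the same libraries: 33 of the 39 tested genes within 10 Mb were called higher, with a median of 1.12. In DU145, TYMS fell with gRNA 10, from 264, 273 and 276 CPM to 173, 165 and 161 (log2 fold change -0.70, SE 0.18, edgeR adjusted p 0.00991), and in 22Rv1 it rose with gRNA 10 (0.46). RRM2, the regulated subunit of ribonucleotide reductase, fell in 22Rv1 from 465, 505 and 456 CPM to 344, 327 and 246 with gRNA 1 and 256, 276 and 270.3 with gRNA 10. In DU145 it rose from 266, 282 and 271 CPM to 303, 323 and 380.1 with gRNA 2 and 463, 453 and 450.3 with gRNA 10. The 52 tested neighbours of RRM2 in DU145 had medians of 0.23 and 0.63, next to the gene's own 0.30 and 0.74. In PC3 RRM2 rose from 146, 158 and 145 CPM to 193, 190.0 and 184 with gRNA 2 and 178, 162 and 176 with gRNA 10. RRM1, the catalytic subunit, fell with both guides in DU145 (-0.24 and -0.42), where its 126 tested neighbours had medians of -0.38 and -0.44. In PC3 RRM1 was at 117, 117 and 109 CPM in the controls, fell to 101, 97.9 and 95.2 with gRNA 2 (-0.22) and was called higher with gRNA 10 at 121, 119.7 and 124 (0.09). Its neighbours in PC3 had medians of -0.58 with gRNA 2 and 0.05 with gRNA 10.

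The mitotic cyclins CCNA2, CCNB1 and CCNB2, the kinase CDK1 that they drive and its activating phosphatase CDC25C all fell in 22Rv1 gRNA 1, and none of the 5 was called there with gRNA 10. CDK1 was at 183, 232 and 179.8 CPM in the 22Rv1 controls, 131, 117 and 134 with gRNA 1 and 155, 168 and 169 with gRNA 10. All libraries of both guides lay below the controls, with log2 fold changes of -0.64 (edgeR adjusted p 0.00105, SE 0.11) and -0.27 (edgeR adjusted p 0.074, SE 0.11). In DU145, CDK1 rose with gRNA 10 (0.27) and CCNA2 with gRNA 2 (0.32). In PC3 all 5 rose with gRNA 2, and with gRNA 10 only CCNA2, which encodes cyclin A2, did not. CCNA2 was at 27.6, 27.2 and 28.3 CPM in the PC3 controls, 36.2, 37.1 and 35.1 with gRNA 2 and 22.4, 19.5 and 21.1 with gRNA 10, and the last was a fall (log2 fold change -0.40, SE 0.06, edgeR adjusted p 1.09e-06). CDC25C went from 6.14, 5.77 and 6.51 CPM to 14.3, 13.8 and 12.4 with gRNA 2 and 14.8, 15.8 and 14.99 with gRNA 10, log2 fold changes of 1.13 and 1.31 beside neighbour medians of 0.51 and 0.43.

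The mitotic kinases and the spindle checkpoint split in the same way. AURKA, AURKB, PLK1, BUB1 and BUB1B all fell in 22Rv1 gRNA 1, were not called with gRNA 10, and all rose in PC3 gRNA 2. AURKA, the centrosome kinase (chr20:56369389-56392337 in GRCh38, minus strand), was at 48.0, 49.6 and 47.2 CPM in the PC3 controls, 68.6, 65.9 and 64.8 with gRNA 2 and 163, 161 and 165 with gRNA 10. The 3 groups are far apart (log2 fold change 1.76, SE 0.04, edgeR adjusted p 1.13e-25 for gRNA 10). Neighbours within 10 Mb were mixed with gRNA 10: of 124 tested, 62 were called higher and 50 lower, with a median of 0.26. In DU145, AURKA rose with gRNA 10, from 178, 178 and 185 CPM to 252, 236 and 248 (log2 fold change 0.45, SE 0.15, edgeR adjusted p 0.037), where its neighbours had a median of 0.35. PLK1, the polo-like kinase of mitotic entry, rose in PC3 from 45.1, 48.3 and 46.0 CPM to 67.1, 73.8 and 73.3 with gRNA 2 and 92.5, 88.4 and 90.3 with gRNA 10. TPX2, which activates AURKA on the spindle, rose with both guides in DU145, from 282, 283 and 293 CPM to 374, 406 and 478 with gRNA 2 and 398, 377 and 390.1 with gRNA 10. In PC3 TPX2 rose with gRNA 2 (0.53) and fell with gRNA 10 (-0.11), beside neighbour medians of -0.07 and -0.44. The checkpoint genes BUB1 and BUB1B parted in PC3 gRNA 10, where BUB1 rose (0.45) and BUB1B fell (-0.27). Their neighbours had medians of 0.04 (BUB1) and -0.36 (BUB1B) there. BUB1 also rose with both guides in DU145 (0.46 and 0.56), where genes within 10 Mb had medians of 0.46 and 0.50.

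CDC20, which activates the anaphase-promoting complex, had the largest rise of the tested members in PC3 gRNA 2. It was at 45.7, 44.7 and 46.6 CPM in the controls, 114, 108 and 111 with gRNA 2 and 70.9, 69.0 and 72.1 with gRNA 10, log2 fold changes of 1.28 (edgeR adjusted p 3.23e-21, SE 0.04) and 0.63 (edgeR adjusted p 1.19e-13, SE 0.05). Genes within 10 Mb of CDC20 had medians of 0.53 and 0.49. In 22Rv1, CDC20 went from 359, 310.4 and 351 CPM to 273, 302 and 266 with gRNA 1 and 283, 284 and 264 with gRNA 10, both below the controls. UBE2C, the ubiquitin-conjugating enzyme of the same complex, had 1 library far above the others: in DU145 gRNA 2 it was at 120.1, 105 and 253 CPM, against 90.2, 99.0 and 100 in the controls, and it was not called (edgeR adjusted p 0.0551). KIF20A, a kinesin of cytokinesis, rose in PC3 from 34.9, 36.5 and 36.2 CPM to 83.4, 85.0 and 84.4 with gRNA 2 and 47.1, 44.2 and 44.8 with gRNA 10, and its neighbours had medians of 0.51 and 0.44. For members whose neighbours moved with them, the part of the surrounding chromosome segment in the result was not tested. Neighbour medians are given for some members only, and others may also have moved with their neighbours. Taken minus its neighbours' median, the log2 fold change of the late members had a median of -0.42 in 22Rv1 gRNA 1, where 20 of 21 lay below their neighbours. It was 0.47 in PC3 gRNA 2, where 21 of 21 lay above. In the other comparisons it was -0.21 in 22Rv1 gRNA 10, 0.21 and 0.13 in DU145 (gRNA 2 and gRNA 10) and 0.28 in PC3 gRNA 10. For the 22 G1/S members it was -0.15 in 22Rv1 gRNA 1, where 17 lay below their neighbours. It was 0.20 and 0.33 in PC3 (gRNA 2 and gRNA 10), where 18 lay above with each guide. In 22Rv1 gRNA 10 it was 0.05, and in DU145 0.04 and -0.12. The same values were not taken over all genes, so they are not read as particular to late members. These 10 Mb windows were chosen after the data had been seen.

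Among kinetochore and spindle genes, CENPE, a motor that links chromosomes to the spindle, had the largest called rise of the late members in DU145 with each guide. It was at 53.0, 52.8 and 47.7 CPM in the DU145 controls, 63.6, 85.5 and 98.0 with gRNA 2 and 92.0, 78.2 and 87.7 with gRNA 10. All 6 libraries of the RIPK2 guides lay above the controls, with log2 fold changes of 0.69 (edgeR adjusted p 0.00445, SE 0.14) and 0.75 (edgeR adjusted p 0.002, SE 0.14). The neighbours of CENPE had medians of -0.01 and 0.05. CENPE fell in 22Rv1 gRNA 1 (-0.66) and in PC3 gRNA 10 (-0.23). KIF11, the kinesin that separates spindle poles, fell in 22Rv1 gRNA 1 (-0.59), rose with both guides in PC3 (0.44 and 0.67) and rose in DU145 gRNA 10, from 148, 161 and 150.3 CPM to 226, 201 and 208 (0.47). BIRC5, which encodes survivin, was called only in PC3 gRNA 2 (0.20), and CENPA, the centromere histone, only in PC3 (0.34 and 0.15).

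The proliferation marker MKI67 was called in none of the 6 comparisons, unlike TOP2A. In 22Rv1 MKI67 was at 413, 382 and 346 CPM in the controls, 311, 356 and 278 with gRNA 1 and 388, 403 and 368 with gRNA 10. In DU145 the controls were at 521, 436 and 443 CPM, gRNA 2 at 432, 518 and 642 and gRNA 10 at 607, 549 and 623. In PC3 the controls were at 129.6, 153 and 139 CPM, gRNA 2 at 167, 181 and 167 and gRNA 10 at 140.1, 135 and 106. Its log2 fold changes were -0.27 and 0.02 in 22Rv1, 0.18 and 0.34 in DU145 and 0.29 and -0.14 in PC3, with edgeR adjusted p from 0.0569 to 0.885. A p that misses the threshold does not show that MKI67 stayed level. TOP2A, the topoisomerase that untangles chromosomes, fell in 22Rv1 from 458, 532 and 435 CPM to 328, 316 and 262 (gRNA 1) and 352, 375 and 375 (gRNA 10). In PC3 it rose from 111, 128 and 119 CPM to 227, 225 and 205 with gRNA 2 and 206, 213 and 194 with gRNA 10, with no overlap with the controls in either line.

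Some members were called in the same direction with both guides of a line. In 22Rv1 these were 2 higher (12.4% of all genes), CDK2 and MCM7, and 8 lower (12.3% of all genes): CCND3, CCNE2, MYBL2, MCM2, RRM2, CDC20, CENPF and TOP2A. Of these 10, CCND3, CCNE2, MYBL2, RRM2 and MCM7 were called with both guides under every alternative at the same threshold. In DU145, 5 were higher (8.05%), RRM2, BUB1, CENPE, KIF20A and TPX2, and 3 lower (8.02%), CCNE1, CCNE2 and RRM1. There BUB1, CENPE and TPX2 kept both calls under every alternative at the same threshold, and each of the others lost at least 1. In PC3, 26 were higher (17.9%) and 1 lower (16.3%). The 26 were CCND1, CCNE2, CDK2, CDC25A, CDKN2C, E2F2, MYBL2, MCM4, MCM10, CDC6, RRM2, CCNB1, CCNB2, CDK1, CDC25C, AURKA, AURKB, PLK1, BUB1, CDC20, UBE2C, CENPA, CENPF, KIF11, KIF20A and TOP2A. Of these, 21 kept both calls under every alternative at the same threshold, and MCM4, CCNB2, AURKB, CENPA and CENPF lost at least 1. FOXM1, PCNA, RRM1, CCNA2, BUB1B and TPX2 were called in opposite directions by the guides of PC3, as were CDKN1B in 22Rv1 and CCND1 in DU145. No member was called in the same direction in all 6 comparisons.

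Calls close to the threshold were ended by at least 1 alternative at the same threshold, most often by leaving out a library. In 22Rv1 this held for CDK2, MCM10, CCNA2, CCNB2, PLK1, BUB1, CDC20, CENPF, KIF20A and TPX2 with gRNA 1 and for CDK4, CDK2, MCM2, CDC6, CDC20 and TOP2A with gRNA 10. In DU145 it held for CDK4, CCNE2, MYBL2, MCM6, RRM1, RRM2, CCNA2, CDC20 and KIF20A with gRNA 2 and for CCNE1, E2F1, MCM2, CDK1, AURKA and KIF20A with gRNA 10. In PC3 it held for CDKN1B, E2F1 and MCM4 with gRNA 2 and for MCM6, RRM1, CCNB2, AURKB, CENPA, CENPF and TPX2 with gRNA 10. The opposite directions of RRM1 and of TPX2 in PC3 rest in part on gRNA 10 calls of this kind, with edgeR adjusted p of up to 0.298 and 0.065.

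Set directly against each other, the guide populations of 22Rv1 differed in a share of members near that of all genes. In DU145 the share was smaller. In PC3 the share was somewhat larger. Between gRNA 1 and gRNA 10 in 22Rv1, 16 of 49 members differed (35.6% of all genes), all lower with gRNA 1. In DU145, 14 of 50 differed between gRNA 2 and gRNA 10 (38.8%), and in PC3 40 of 49 (73.4%). With 1 library left out at a time these counts ran from 11 to 21 (22Rv1), 8 to 21 (DU145) and 37 to 42 (PC3). Nothing about the members is read from these shares in 22Rv1 and DU145. The lines were compared through the mean of both guides minus control in 1 model of all 27 libraries. The change differed between 22Rv1 and DU145 for 29 of 50 members (47.1% of all genes), between 22Rv1 and PC3 for 34 (45.3%) and between DU145 and PC3 for 20 (42.2%). Of these, 25, 25 and 14 had changes of opposite sign in the lines compared.

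A group of 6 genes fell with both guides in 22Rv1 and rose with both in PC3: CCNE2, CDC20, CENPF, MYBL2, RRM2 and TOP2A. Tests of the difference use the same libraries as the calls that picked these genes, and add no separate support. The difference of their changes (22Rv1 minus PC3, on the log2 scale) was -1.63 (edgeR adjusted p 6.42e-09, SE 0.16) for CCNE2, -1.32 (edgeR adjusted p 3.28e-09, SE 0.13) for MYBL2 and -1.32 (edgeR adjusted p 5.82e-10, SE 0.12) for TOP2A. For CDC20 it was -1.23 (edgeR adjusted p 5.02e-08, SE 0.14), for RRM2 -0.99 (edgeR adjusted p 9.6e-08, SE 0.12) and for CENPF -0.93 (edgeR adjusted p 1.3e-05, SE 0.15). Alternatives ended the 22Rv1 call of CDC20 with each guide, of CENPF with gRNA 1 and of TOP2A with gRNA 10. CENPF, a kinetochore protein, was near the threshold in 22Rv1: it was at 272, 312 and 244 CPM in the controls and 208, 208 and 256 with gRNA 1, where the groups overlap (edgeR adjusted p 0.0497). With gRNA 10 it was at 184, 192 and 189.7 CPM, clear of the controls.

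**Figure D4:**
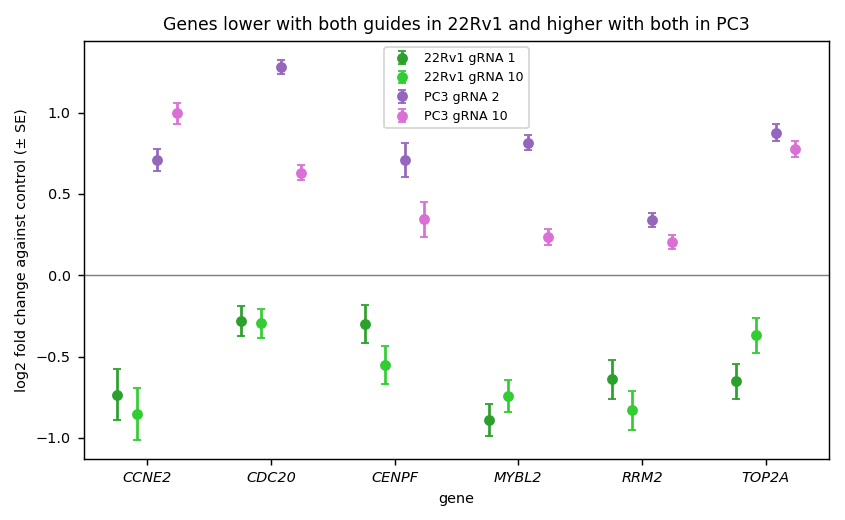
Log2 fold change against control (y axis, bars are SE) of the 6 genes lower with both guides in 22Rv1 (green) and higher with both in PC3 (purple). Every green point lies below 0 and every purple point above it; CCNE2 spans -0.85 to 0.99.

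The promoters of 5 of these genes are shown for the elements they share or lack; CCNE2 is named only. Each run is the 250 bases before the RefSeq start in build GRCh38.p14, 5′ to 3′ on the gene's own strand: CDC20 (chr1:43358731-43358980, plus strand), CENPF (chr1:214602945-214603194, plus), TOP2A (chr17:40417897-40418146, minus), RRM2 (chr2:10122489-10122738, plus, 1 of its 2 starts) and MYBL2 (chr20:43666864-43667113, plus). Capitals mark the letters of a CHR element (TTTGAA or TTTAAA) or a CCAAT box (CCAAT), on either strand.
CDC20: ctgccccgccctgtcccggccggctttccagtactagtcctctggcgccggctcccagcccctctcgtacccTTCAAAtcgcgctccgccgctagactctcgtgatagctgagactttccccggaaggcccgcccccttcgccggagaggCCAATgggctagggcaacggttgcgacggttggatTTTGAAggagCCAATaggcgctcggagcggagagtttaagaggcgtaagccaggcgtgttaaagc
CENPF: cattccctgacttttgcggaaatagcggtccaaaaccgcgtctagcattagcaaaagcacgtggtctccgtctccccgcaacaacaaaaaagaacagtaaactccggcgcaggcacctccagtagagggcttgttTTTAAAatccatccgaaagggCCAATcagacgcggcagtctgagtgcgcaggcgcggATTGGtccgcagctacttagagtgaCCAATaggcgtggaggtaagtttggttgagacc
TOP2A: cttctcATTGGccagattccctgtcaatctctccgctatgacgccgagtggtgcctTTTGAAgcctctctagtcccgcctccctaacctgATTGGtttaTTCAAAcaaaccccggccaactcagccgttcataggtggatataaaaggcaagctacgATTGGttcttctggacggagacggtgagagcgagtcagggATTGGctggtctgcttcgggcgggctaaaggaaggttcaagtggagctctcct
RRM2: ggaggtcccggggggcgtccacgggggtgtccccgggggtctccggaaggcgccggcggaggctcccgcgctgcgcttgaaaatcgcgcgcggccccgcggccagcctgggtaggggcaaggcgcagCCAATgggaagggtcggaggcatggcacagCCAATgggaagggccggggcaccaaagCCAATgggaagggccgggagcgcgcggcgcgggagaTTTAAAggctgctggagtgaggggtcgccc
MYBL2: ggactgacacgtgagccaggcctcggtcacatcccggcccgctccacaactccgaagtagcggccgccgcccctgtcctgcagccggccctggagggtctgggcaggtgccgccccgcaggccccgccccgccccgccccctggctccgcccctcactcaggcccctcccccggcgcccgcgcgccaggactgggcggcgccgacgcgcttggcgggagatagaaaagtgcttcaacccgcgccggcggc

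CDC20, CENPF, TOP2A and RRM2 each held at least 1 CHR match and 2 or more CCAAT matches in these 250 bases, while MYBL2 held neither. RRM2 has 2 starts, and the one shown was chosen by the highest number of motif matches. Its matches may therefore not hold at the other start. In RRM2 the nearest CHR match began 30 bases before the start and the nearest CCAAT box 66 bases before it. In CDC20 they began 65 and 55 bases before it. No E2F-type match (TTTGGCGC, TTTCCCGC or TTTCGCGC, on either strand) lay in any of the 5. Over 300 bases, 250 before and 50 after the start, 39 of the 50 members had a promoter in the RefSeq table. UBE2C, MCM4, TPX2, FOXM1, CCND1, CCND2, CDK2, AURKA, MCM5, CCNE2 and BIRC5 are named only. A CHR match was found at 16 of 22 starts of late members (72.7%), 4 of 23 of G1/S members (17.4%) and 24.0% of all 35116 starts. An E2F-type match was found at 11 of 23 G1/S starts (47.8%), 3 of 22 late starts (13.6%) and 2.74% of all. CCAAT boxes were at 18 of 22 late starts (81.8%), 17 of 23 G1/S starts (73.9%) and 34.6% of all. A match is a description of the letters, not a site.

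**Figure D5:**
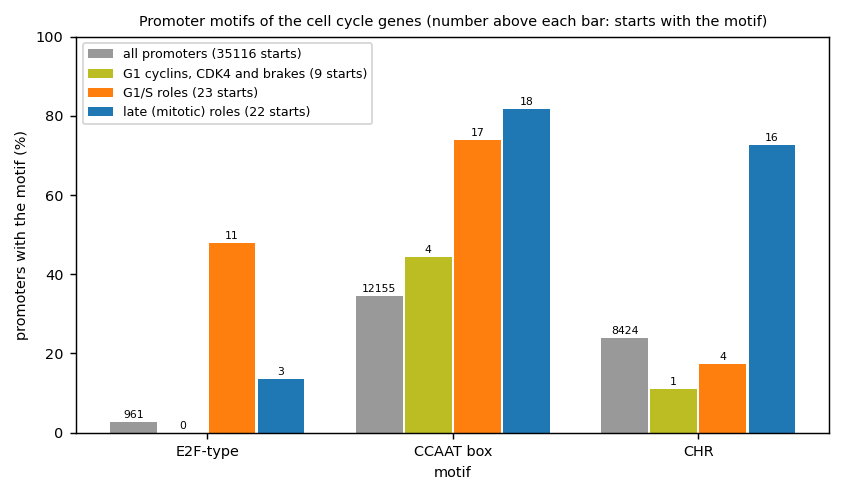
Share of promoters (y axis, percent) with at least 1 match of each motif (x axis) among all RefSeq starts (grey) and the starts of the 3 role groups; the number above a bar counts its starts with a match. CHR matches are at 72.7% of late starts against 24.0% of all, and E2F-type matches at 47.8% of G1/S starts against 2.74% of all.

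The wider cell cycle was followed through 91 companion genes in 4 groups. CDKN1A, which encodes the CDK inhibitor p21, was at 21.4, 20.6 and 20.6 CPM in the 22Rv1 controls, 114, 113 and 84.8 with gRNA 1 and 133, 132 and 117 with gRNA 10. All 6 libraries of the RIPK2 guides lay above the controls, with log2 fold changes of 2.32 (edgeR adjusted p 2.72e-07, SE 0.13) and 2.61 (edgeR adjusted p 1.23e-07, SE 0.13). In DU145 CDKN1A was not called with either guide (-0.08 and 0.05), and in PC3 it rose with both (0.53 and 1.05). CDK6, the other kinase partner of the D-type cyclins, was at 5.14, 5.85 and 5.51 CPM in the DU145 controls, 26.5, 34.9 and 44.6 with gRNA 2 and 37.2, 34.7 and 34.6 with gRNA 10. Its log2 fold changes were 2.68 (edgeR adjusted p 5.04e-06, SE 0.18) and 2.69 (edgeR adjusted p 2.92e-06, SE 0.18). In PC3 CDK6 rose with gRNA 2, from 17.2, 19.5 and 18.6 CPM to 33.7, 30.6 and 31.7, and fell with gRNA 10 to 3.24, 4.96 and 3.08. In 22Rv1 it rose with gRNA 1 (0.83) and was not called with gRNA 10 (0.06). CDKN2A and CDKN2B, which encode inhibitors of CDK4 and CDK6, fell with both guides in PC3 (-0.41 and -0.69 for CDKN2A, -0.33 and -0.62 for CDKN2B). CDKN2A was not called in 22Rv1 or DU145. CDKN2B rose with both guides in 22Rv1 (0.67 and 0.45) and with gRNA 10 in DU145 (0.46), and alternatives ended both gRNA 10 calls (edgeR adjusted p up to 0.169 and 0.0877). RBL2, the pocket protein p130, fell in 22Rv1 gRNA 10 (-0.44) and PC3 gRNA 2 (-0.14) and rose in PC3 gRNA 10 (0.16).

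Of the 42 companions of G2/M and mitosis, 2 rose and 24 fell in 22Rv1 gRNA 1, beside 25.6% of all genes higher and 22.9% lower, and 5 and 28 without replicate 3 of that group. With gRNA 10 there, 8 rose (20.0% of all genes) and 17 fell (20.6%). The 8 were 4 or 5 when any 1 control or gRNA 10 library other than control replicate 2 was left out, and the 17 were 8 without gRNA 10 replicate 1 and 11 without its replicate 2. In DU145, 12 rose (17.1% of all genes) and none fell (17.0%) with gRNA 2. With gRNA 10 in DU145, 6 rose and 1 fell, both shares under those of all genes (20.2% and 19.8%). Without replicate 3 of gRNA 2 these gRNA 10 counts were 19 and 4, and on the compared libraries alone 23 and 5. In PC3, 36 rose (32.1%) and 2 fell (31.5%) with gRNA 2, and 33 rose (37.9%) and 3 fell (35.6%) with gRNA 10. CKS2, a small CDK-binding subunit, fell the most in 22Rv1, from 366 CPM (SD 10.6, n = 3) to 80.2 CPM (SD 17.5) and 83.6 CPM (SD 1.23), log2 fold changes of -2.19 and -2.13. The highest rises by comparison were of ESPL1, which encodes separase, in 22Rv1 gRNA 1 (0.60), ANLN, anillin of the cytokinetic ring, in 22Rv1 gRNA 10 (0.91) and DU145 gRNA 10 (0.61) and TACC3 in DU145 gRNA 2 (0.84). In PC3 they were of ASPM, a spindle-pole protein, with gRNA 2 (1.36) and NDC80, of the outer kinetochore, with gRNA 10 (1.61). The deepest falls outside 22Rv1 were of CENPN in DU145 gRNA 10 (-0.42), CDC25B in PC3 gRNA 2 (-0.54) and the condensin gene SMC4 in PC3 gRNA 10 (-0.89).

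Of the 27 companions of G1/S and replication, 2 rose and 5 fell in 22Rv1 gRNA 1, and 5 rose and 3 fell with gRNA 10, shares under or near those of all genes just given. Without replicate 3 of 22Rv1 gRNA 1, the gRNA 10 counts were 8 and 5. In DU145, 4 rose and 2 fell with gRNA 2, also under those of all genes, and 1 rose and 7 fell with gRNA 10. Without replicate 3 of DU145 gRNA 2, these were 4 and 8 (gRNA 2) and 4 and 12 (gRNA 10). In PC3, 17 rose and 1 fell with gRNA 2, and 17 rose and 6 fell with gRNA 10. In 22Rv1 the extremes were CDT1 (0.45) and RFC3 (-0.97) with gRNA 1 and RPA2 (0.69) and CDC7 (-0.70) with gRNA 10. In DU145 they were SLBP (0.63) and GINS3 (-0.67) with gRNA 2 and TK1 (0.39) and GINS3 (-1.02) with gRNA 10. In PC3 they were CDC7 (0.93) and WEE1 (-0.60) with gRNA 2 and PRIM1 (1.15) and POLA1 (-0.96), both subunits of the primase complex, with gRNA 10.

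Of the 11 E2F, DREAM and MuvB factors, 6 fell and none rose in 22Rv1 gRNA 1, and 2 rose and 2 fell with gRNA 10, near the shares of all genes. In DU145, 1 fell with gRNA 2 and 4 fell with gRNA 10, and none rose. On the compared libraries alone, DU145 gRNA 10 had 1 higher and 8 lower. In PC3, 6 rose and 1 fell with gRNA 2, and 3 rose and 5 fell with gRNA 10. TFDP2, an E2F dimer partner, was the deepest fall of the group with both guides in 22Rv1 (-1.39 and -1.19) and with gRNA 2 in PC3 (-0.46). E2F7 (-0.32), E2F4 (-0.66) and LIN52 (-0.59) were the deepest in DU145 gRNA 2, DU145 gRNA 10 and PC3 gRNA 10. E2F5 rose in 22Rv1 gRNA 10 (0.83), and LIN9, a MuvB core subunit, rose with both guides in PC3 (0.43 and 0.47). Of the 11 CDK inhibitors, pocket proteins and G1 kinases, 3 rose and 5 fell in 22Rv1 gRNA 1, and 4 rose and 3 fell with gRNA 10 (4 and 6 without replicate 3 of gRNA 1). In DU145, 1 rose with gRNA 2 and 6 rose with gRNA 10, and none fell. In PC3, 3 rose and 4 fell with gRNA 2, and 4 rose and 6 fell with gRNA 10. With so few genes, nothing is read from these counts beside the shares of all genes. CCNG2, which encodes cyclin G2, fell in 22Rv1 from 64.2 CPM (SD 6.39, n = 3) to 29.4 CPM (SD 4.54) and 23.1 CPM (SD 1.65). BTG2, an antiproliferative gene, rose in PC3 gRNA 2 from 1.31 CPM (SD 0.0584, n = 3) to 9.88 CPM (SD 0.545), a log2 fold change of 2.91. Pseudogenes of the same name exist for 12 of the 50 members, CCND3, TYMS, RRM2, AURKA and CDC20 among them, and how reads of such copies were counted is not given in the sources used here.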

How the data were processed

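RNA-seq was run on 27 libraries of 22Rv1, DU145 and PC3 cells. For each line the authors deposited raw counts of reads by gene in 1 table. The submitters' processing notes name FastQC, STAR, edgeR and build hg38, while the counting program, annotation and filters are not given in the sources used here. Rows that shared a symbol were summed (6 in 22Rv1, 2 in DU145, 2 in PC3), and 0 value columns were left unused. Genes were kept by filterByExpr (minimum count 10, minimum total 15), which left 15198, 14908 and 14718 genes. They were fitted in edgeR 4.0.16 (R 4.3.3) with TMM factors and the robust quasi-likelihood test, all 9 libraries of a line together, with the group as the only term. P-values were Benjamini-Hochberg adjusted over all genes, and the test was checked on simulated data. Line differences came from 1 fit of all 27 libraries (16322 genes). A depth of 17958558 to 20650819 counts put the floor of 3 counts at 0.144 to 0.178 CPM, and intervals and floors cover counting error only.

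Members, companion genes and tests were chosen with earlier results of these data known. The role groups and the 10 Mb windows were set after the data had been seen. The genes named are the 3 highest rises and 3 deepest falls per guide comparison among called members whose libraries do not overlap, members called with both guides, a short list always given and the extremes of each companion group. Other members were named to complete a role, after their values were seen. Same-numbered libraries mostly did not deviate together: correlations were -0.08 to 0.34 in 22Rv1 (1 of 9 over 0.1), and the range was -0.19 to 0.07 for DU145 and -0.05 to 0.06 for PC3. Replicate numbers are those of the sample titles. Library names number some groups differently, and pairing by those was not tested. Alternatives were RLE factors, DESeq2 1.42.0, other count filters, mitochondrial genes left out, a replicate block, only the libraries compared, an adjusted p under 0.01 and each library left out in turn. Promoters are from RefSeq (GRCh38.p14) and gene positions from GENCODE 29.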

Additional observations from a re-analysis of the deposited data

Results flagged for a closer look

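In the results below, both guides of 1 line moved a gene one way and both guides of another line the other way. The difference itself was then tested in edgeR's fit of all 27 libraries. Genes were picked by calls from these same libraries, so a passing test was close to fixed in advance and adds no separate support. For RRM2, the change in 22Rv1 minus that in DU145 was -1.25 on the log2 scale (SE 0.11, edgeR adjusted p 2.25e-09). Against PC3, the change in 22Rv1 was lower by a log2 difference of -1.63 for CCNE2, -1.32 for MYBL2 and -1.32 for TOP2A. For CDC20 that difference was -1.23, for RRM2 -0.99 and for CENPF -0.93. CCNE2 also differed between DU145 and PC3, by -1.53 (SE 0.17, edgeR adjusted p 4.18e-08). The guides were gRNA 1 and gRNA 10 in 22Rv1 and gRNA 2 and gRNA 10 in DU145 and PC3, so the line and the first guide cannot be told apart in the comparisons with 22Rv1.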

How the results depend on the processing

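At an adjusted p under 0.01 the counts of called members were 17 in 22Rv1 gRNA 1, 11 in 22Rv1 gRNA 10, 9 between the guides of 22Rv1, 7 in DU145 gRNA 2 and 8 between the guides of DU145. The replicate block took the count in DU145 gRNA 2 from 16 to 10 (8 higher, 2 lower) and moved the other counts by no more than 1.5 times. Its replicate numbers are those of the sample titles, and pairing by library number was not tested. Fitted on the compared libraries alone, DU145 gRNA 2 gave 7 (5 higher, 2 lower), DU145 gRNA 10 gave 41 (26 higher, 15 lower) and the DU145 guides differed in 8 (4 and 4). With 1 library left out at a time, counts ran from 19 to 33 in 22Rv1 gRNA 1, 12 to 27 in 22Rv1 gRNA 10, 11 to 21 between these guides, 7 to 26 in DU145 gRNA 2, 12 to 37 in DU145 gRNA 10 and 8 to 21 between these. They ran from 34 to 37 in PC3 gRNA 2, 40 to 42 in PC3 gRNA 10 and 37 to 42 between these. For the line differences they ran from 23 to 33 (22Rv1 and DU145), 30 to 37 (22Rv1 and PC3) and 19 to 25 (DU145 and PC3). The 27 in 22Rv1 gRNA 10 (11 higher, 16 lower) came without replicate 3 of gRNA 1, and the 26 and 37 in DU145 without replicate 3 of gRNA 2. The 8 between the DU145 guides came without replicate 2 or 3 of gRNA 10.

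Of 261 single-gene results, 224 were called, 176 of these kept their call under every alternative at the same threshold, 48 lost it under at least 1, and 0 called results changed sign. Of the 37 not called, 21 were called under some alternative. Signs turned only in uncalled results, each with 1 library left out. Over these fits the log2 fold change of RBL2 in 22Rv1 gRNA 1 ran from -0.176 to 0.0160 (positive without control replicate 2). In 22Rv1 gRNA 10, MKI67 ran from -0.0433 to 0.0856 (negative without control replicate 3 or gRNA 10 replicate 2) and CDK6 from -0.0741 to 0.140 (negative without control replicate 3). In DU145 gRNA 2, RB1 ran from -0.0858 to 0.126 (negative without control replicate 1 or gRNA 2 replicate 2 or 3). There, without gRNA 2 replicate 3, CDKN1A (-0.195 to 0.0154) turned positive and CDKN2A (-0.0688 to 0.375) negative. The causes were not tested. Depth limits CCND2 in particular, which had at most 3 counts in every library outside DU145 gRNA 10.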
